A study of Mus musculus with 2 samples.

Results

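The genes described here make ribosomes: the rRNA precursor Rn45s, the subunits and initiation factors of RNA polymerase I, and the nucleolar proteins that modify, cut and assemble rRNA. They were taken by gene symbol, by a fixed pattern that covers the Nop, Nol, Utp, Rrp, Polr1 and Taf1 names and single genes such as Fbl, Ncl and Npm1. The pattern matched 59 of 24062 gene symbols. Counts came from 2 RNA libraries of mouse aorta at embryonic day 11, of strain C57BL6. The embryos bore the Gata2Venus transgene, a fluorescent reporter of Gata2, a transcription factor of early blood cells. Both libraries were made from total RNA of CD31+ KITint cells, labelled haematopoietic progenitor cells. They were sorted into Gata2Venus-negative cells (1 library, 10135400 counts in genes) and Gata2Venus-positive cells (1 library, 9715131 counts in genes). How many embryos or cells stand behind a library is not given in the sources used here. The comparison asks how the sorted cells without the reporter differ from those with it. With 1 library in each group there is no replicate check, no test between conditions and no p-value. Each ratio below compares these libraries only, and its 95% interval covers counting error alone, and no molecular identifiers are named in the labels, so amplified reads may not be independent molecules.

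RNA polymerase I copies the repeated rRNA genes in the nucleolus into a single long precursor. The factor Ubtf and the SL1 complex, which holds the Taf1a to Taf1d proteins, mark the promoter, and Rrn3 brings the polymerase to it. Small nucleolar ribonucleoproteins (snoRNPs) of the box C/D and box H/ACA classes then methylate and pseudouridylate the precursor. The small subunit processome folds and cuts the part that becomes 18S rRNA, and a separate set of factors, among them the complex of Pes1, Bop1 and Wdr12, builds the 60S subunit. Growing and dividing cells, blood progenitors included, make ribosomes at a high rate, and the Myc family of transcription factors drives many of these genes through E-box sites.

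Levels are given as CPM, counts scaled to a common library total with TMM, a factor that sets most genes equal between the libraries. Wherever a pair of values is given, the negative library comes first. Differences are log2 ratios of the negative over the positive library. A gene passes the rule of size when its higher library holds 10 CPM and 50 counts or more, and both bounds of the ratio are beyond 2-fold in the same direction. Levels of different genes are compared only as CPM per kb of annotated exon.

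Promoter sequence is shown for 3 members because the E-box is the motif by which the family is best known and these genes stand at different points in the results. Rrn3, the initiation factor, carried more E-boxes than any other member's window and was at similar levels in the libraries. Utp14b had the highest ratio of all members and carried 1 E-box. Polr1a, the catalytic subunit, was 3.62-fold higher in the negative library and its window held none. Each line gives the 250 bases before the start site, 5′ to 3′ on the gene's strand, from RefSeq (GRCm38.p6), with the E-box in capitals.
Rrn3 (chr16:13780449-13780698, plus strand): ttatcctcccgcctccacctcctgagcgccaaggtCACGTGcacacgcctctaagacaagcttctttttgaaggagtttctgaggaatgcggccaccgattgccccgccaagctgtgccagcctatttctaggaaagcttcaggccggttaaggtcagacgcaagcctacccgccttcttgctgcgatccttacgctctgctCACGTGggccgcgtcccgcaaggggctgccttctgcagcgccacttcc
Utp14b (chr1:78658190-78658439, plus strand): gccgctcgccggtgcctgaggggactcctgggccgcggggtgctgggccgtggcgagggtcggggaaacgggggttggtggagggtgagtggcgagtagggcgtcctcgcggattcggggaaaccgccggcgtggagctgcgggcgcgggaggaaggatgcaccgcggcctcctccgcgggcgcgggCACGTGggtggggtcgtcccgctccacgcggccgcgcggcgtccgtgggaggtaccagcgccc
Polr1a (chr6:71908803-71909052, plus strand): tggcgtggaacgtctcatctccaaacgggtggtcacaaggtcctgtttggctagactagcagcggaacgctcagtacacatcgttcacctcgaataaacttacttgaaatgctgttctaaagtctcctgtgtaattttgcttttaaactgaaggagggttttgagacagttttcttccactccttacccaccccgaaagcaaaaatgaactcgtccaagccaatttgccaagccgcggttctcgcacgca

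The motif searched was CACGTG, which reads alike on both strands, in 300-base windows from 250 bases before to 50 after each start site. The first base of the E-box lay 215 and 48 bases before the RefSeq start site in Rrn3 and 63 before it in Utp14b. In GENCODE vM21, however, Utp14b starts at 78658038, so its stretch and E-box lie inside the gene annotated there. Promoter windows were found for 48 members (61 windows, since some genes have several start sites). An E-box stood in 9 of the 48 (18.8%), against 11.7% of 9475 tested genes and 8.09% of all 27025 genes with a window. The other carriers were Imp4, Nop2, Utp20, Pes1, Utp18, Nol11 and Rrp7a. Among members past the rule, 2 of 6 that were higher in the negative library and 0 of 3 that were higher in the positive library had one. The median log2 ratio was 0.00 for members with an E-box and -0.07 for those without. No window was found for Bop1, Fbl, Nol3, Nol4, Nol6, Npm1, Rn45s, Rrp12, Rrs1, Utp23 and Utp6. A match of letters is a description of the sequence and does not show that a factor binds there.

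Of the 57 tested members 46 did not pass the rule, as did not 9417 of all 12544 tested genes. On the log2 scale 29 of the 56 other than Rn45s lay within 0.5 of equality. The share of all genes within that bound was not counted. At 50 to 200 CPM, where 38 members lie, the quartiles of all tested genes above 3 counts in each library were -0.50 and 0.54. Lying that close to equality was thus ordinary for genes of this level. The polymerase I genes Polr1a, Taf1a and Taf1b, the small subunit genes Utp14b, Utp20 and Rrp12 and the 60S gene Rrp8 were 2.54-fold to 6.92-fold higher in the negative library. Polr1e, Nol10, Utp14a and Rn45s, whose counts may include mature rRNA, were 2.08-fold to 2.65-fold higher in the positive library. The chaperone and snoRNP genes all had point ratios within 2-fold, though the interval of Gar1 (-1.11 to -0.64) reached beyond it. Most of them lie at levels where few genes pass. Above 200 CPM 2.74% and 2.63% of all genes did, and at 50 to 200 CPM 9.18% and 7.35%. Summed over the 58 members other than Rn45s, the level was 8597 and 8944 CPM, a log2 ratio of -0.06. These genes took 0.933% and 0.973% of the counts in genes other than Rn45s. Of the 59 members 57 had at least 20 counts over both libraries and were tested, and Nol3 and Nol4 had 0 counts in both. A count of 0 allows up to 0.288 and 0.317 CPM, taking 3 counts as the limit and counting error alone. Nol3, an inhibitor of cell death, and Nol4 were matched by name and are not known as ribosome assembly factors.

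No tested member was near 0 in either library, the lowest count being 31 for Utp14b in the positive library. Among all 12544 tested genes, 793 had 3 or fewer counts in one library and 100 or more in the other. The median CPM, uncorrected for exon length, was 99.3 and 91.2 for tested members. Over all tested genes it was lower, at 31.5 and 31.2.

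By the rule of size 7 of the 57 tested members were higher in the negative library and 4 were higher in the positive library, and 46 were not past it. The background was 12.6% and 12.3% of all 12544 tested genes, and 15.2% and 14.9% of the 10381 genes that reached the level the rule asks for. In the negative direction the members' 12.3% was near the first background (12.6%) and below the second (15.2%). In the positive direction their 7.02% was below both. Neither background is matched for the members' higher level, and shares by level are given below. The median log2 ratio of the members was -0.07 (interval over members -0.32 to 0.03), beside -0.01 over all tested genes. Genes are not independent replicates, so that interval describes these genes only. With scaling by total counts the split was 7 and 2, because Rn45s (log2 ratio -0.98) and Utp14a (-1.22) no longer passed. With a coefficient of variation of 0.4 assumed for the unmeasured spread between libraries, 10 of the 11 calls were lost and Utp14b alone remained, while the shares of all genes became 5.29% and 5.53%.

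**Figure D1:**
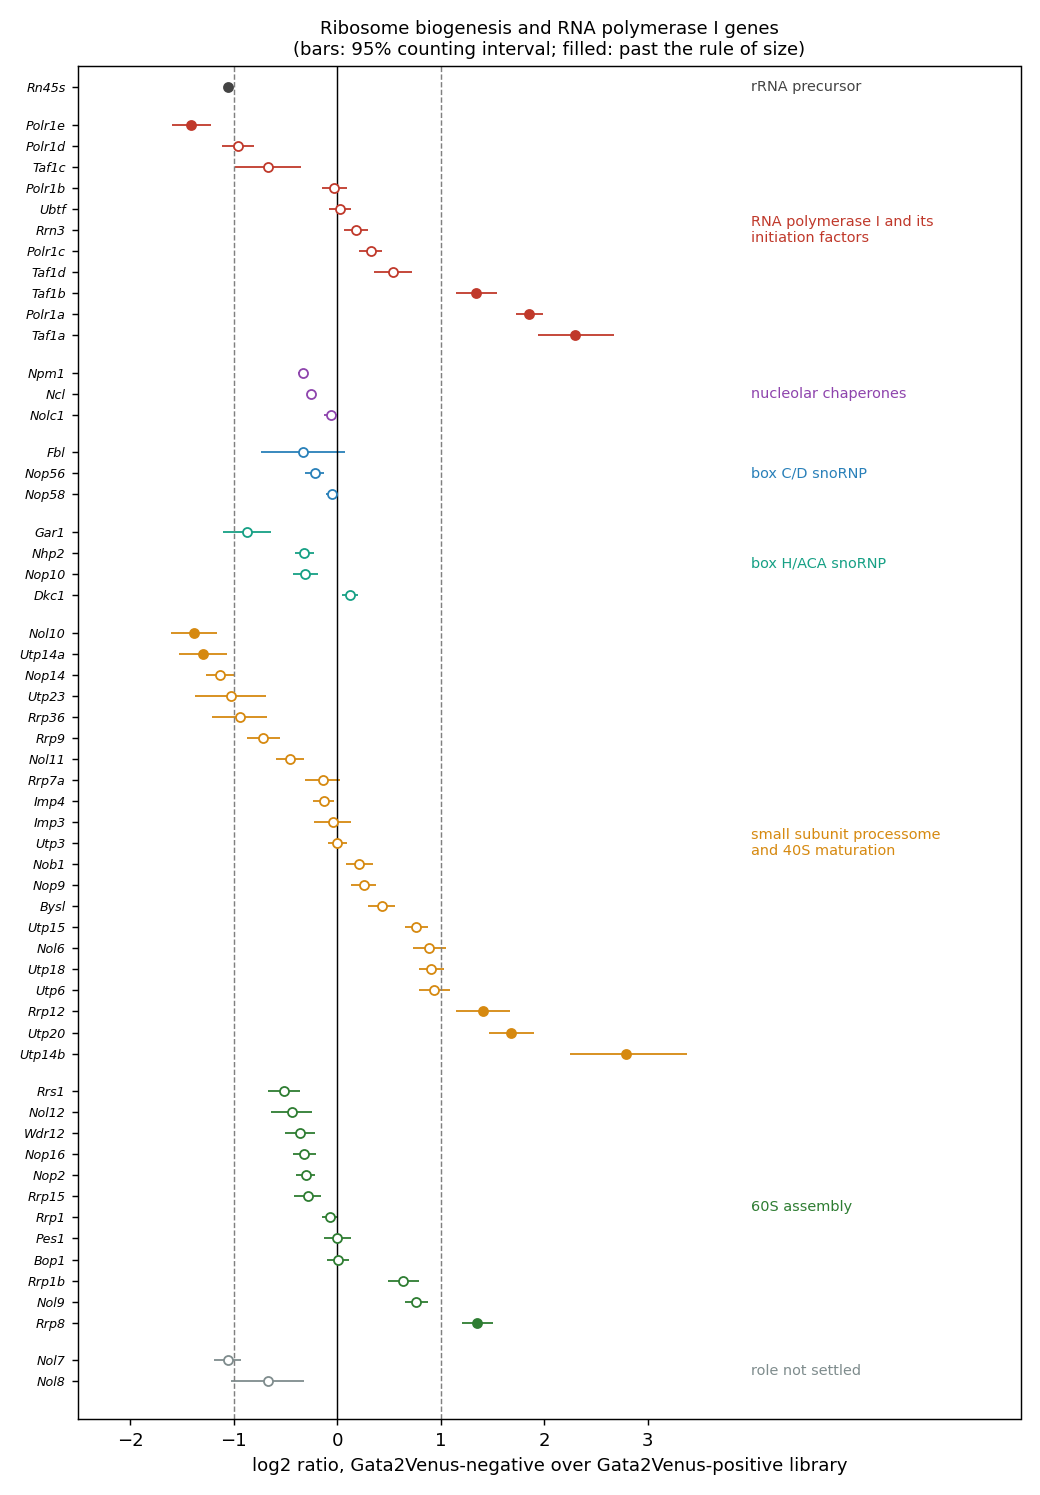
Log2 ratio of the Gata2Venus-negative over the Gata2Venus-positive library (x axis) for the 57 tested members, grouped by role. Bars are 95% counting intervals, filled points are past the rule of size and dashed lines mark 2-fold. The polymerase and small subunit groups spread from below -1 to above 2. The snoRNP and chaperone genes sit between -0.87 and 0.12, and most of them lie at levels where few of all genes pass the rule.

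The share of genes past the rule fell with their level, so the members are also given by level. At a mean of 10 to 50 CPM, 3 of 12 members were higher in the negative library and 2 of 12 in the positive library, where 17.5% and 18.2% of all genes of that level were. Between 50 and 200 CPM it was 4 and 1 of 38 members, against 9.18% and 7.35% of all genes. Above 200 CPM it was 0 and 1 of 7 members, the 1 being Rn45s, against 2.74% and 2.63%. The interquartile range of the members' log2 ratios was 0.88, from -0.46 to 0.43, beside 1.31 for all tested genes above 3 counts in each library. Within 50 to 200 CPM the ranges were 0.93 for members and 1.04 for all genes. At 10 to 50 CPM they were 1.07 and 1.66, and above 200 CPM 0.24 and 0.70.

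**Figure D2:**
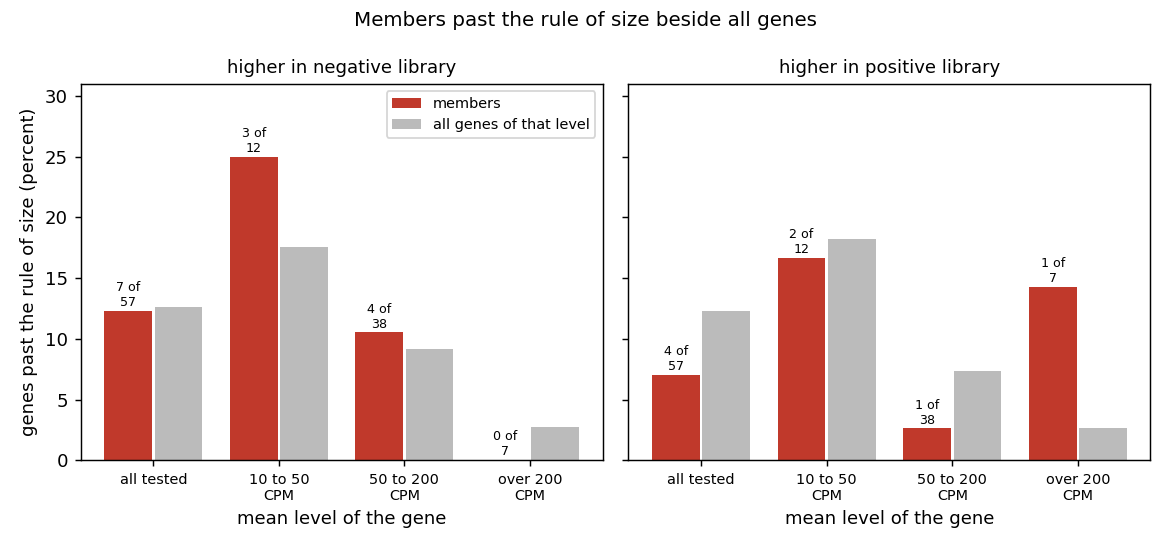
Percent of genes past the rule of size (y axis) for members and for all genes of the same mean level (x axis), with the number of members past the rule above each bar. The left panel counts genes higher in the negative library and the right panel those higher in the positive library. At 50 to 200 CPM, which holds 38 members, 4 members stand beside a background of 9.18% on the left and 1 beside 7.35% on the right.

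Some facts of the libraries move beside these results. Gata2 had 141 and 664 counts, the higher value being in the library sorted for the reporter. Kit had 2072 and 574 counts (log2 ratio 1.71), although both sorts took KITint cells, and Pecam1, which encodes CD31, 5593 and 4627. In the positive library, 5 of 10 endothelial markers were past the rule (summed level 2571 and 4652 CPM), as were 7 of 9 macrophage markers (187 and 935 CPM), 6 of 8 megakaryocyte markers (41.0 and 365 CPM) and 4 of 8 tested blood progenitor markers (271 and 650 CPM). In the negative library, 6 of 10 mesenchymal markers (7709 and 4792 CPM) and 2 of 6 epithelial markers (451 and 332 CPM) were past it. These lists were not uniform, as 3 mesenchymal markers (Dcn, Col1a2 and Lum) and 2 epithelial markers (Krt8 and Wt1) had ratios below 0. Of all tested genes 12.6% passed as higher in the negative library and 12.3% as higher in the positive library. The blood progenitor markers Myb and Gfi1 and the erythroid markers Gata1 and Klf1 were at 0 counts in the negative library, and Gfi1 also in the positive library. Runx1 had 21 and 303 counts. Of 8 tested erythroid markers 3 were higher in the positive library by the rule. The sum over the whole erythroid list was 325 and 260 CPM. The globins Hba-x (825 and 331 counts), Hbb-y (1485 and 812) and Hbb-bh1 (1077 and 528) had ratios above 0 without passing. The other 5 tested erythroid markers had ratios below 0. Epor, Hemgn, Car1, Timd4, Gp1bb and Gp5 were also at 0 in the negative library. Of 10 proliferation genes 1 was past the rule (Bub1, 3303 and 1134 counts), and their sum was 3917 and 3711 CPM. The part of cell mixture in the differences of ribosome genes was not tested, and in bulk libraries fewer cells of a type and less RNA per cell cannot be told apart.

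Rn45s, the precursor of the rRNAs of both subunits, took more counts than any other gene in both libraries, which is no comparison of levels per length. It had 539975 and 1018872 counts, which is 5.33% (exact binomial interval 5.31 to 5.34) and 10.49% (10.47 to 10.51) of the counts in genes. At 51865 and 107729 CPM it was 2.08-fold higher in the positive library, at a log2 ratio of -1.05 (interval -1.06 to -1.05). The counting interval is narrow because of the depth, but the value lies close to the 2-fold bound and passes it or not according to the scaling. The rRNA genes are a repeated array, and alignments that were not unique, 45.5% and 48.2% of all counts, were assigned to no gene. Whether rRNA was removed before sequencing is not stated in the labels, and the part of read assignment in the Rn45s ratio was not tested. The precursor contains the mature rRNAs, so these counts do not separate precursor from mature rRNA.

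Genes of RNA polymerase I and of its initiation factors stood on both sides. Of 11 members 3 were higher in the negative library (Polr1a, Taf1a and Taf1b), 1 was higher in the positive library (Polr1e) and 7 were not past the rule. For this role and each role below, the background over all tested genes was 12.6% and 12.3%. Polr1a (chromosome 6, 71909053 to 71984935, GENCODE vM21 on mm10), which encodes the largest, catalytic subunit, had 2270 and 569 counts. That is 218 CPM (interval 209 to 227) against 60.2 CPM (55.3 to 65.3), or 3.62-fold higher in the negative library. Its log2 ratio was 1.86, with an interval of 1.72 to 1.99. Polr1b, the second largest subunit and its partner in the active centre, had 1182 and 1095 counts, at 114 and 116 CPM (log2 ratio -0.03, interval -0.15 to 0.09). Per count of Polr1b there were 1.92 and 0.520 counts of Polr1a, a 3.70-fold difference that no scaling between libraries can alter. Exons of Polr1a overlap those of Gm26628 on the opposite strand, a symbol that is absent from the deposited counts.

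Polr1e (chromosome 4, 45018583 to 45036565), a subunit of the peripheral pair that works in initiation, went the other way. It had 322 and 776 counts, or 30.9 and 82.1 CPM, and was 2.65-fold higher in the positive library, at a log2 ratio of -1.41 (interval -1.60 to -1.22). Polr1d and Polr1c encode a pair of subunits that RNA polymerase III shares. Polr1d had 526 and 928 counts (log2 ratio -0.96, interval -1.11 to -0.80) and Polr1c had 1595 and 1158 (0.32, interval 0.21 to 0.43). Neither passed the rule, yet there were 3.03 and 1.25 counts of Polr1c per count of Polr1d. Polr1c was the most abundant of the group per exon length, at 67.3 and 53.7 CPM per kb.

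The SL1 genes were divided as well. Taf1a (chromosome 1, 183388981 to 183410198) had 411 and 76 counts, or 39.5 and 8.04 CPM, and was 4.91-fold higher in the negative library. Its log2 ratio was 2.30, with an interval of 1.94 to 2.67. Taf1b (chromosome 12, 24498359 to 24558539), the SL1 subunit that resembles the polymerase II factor TFIIB, had 811 and 290 counts and was 2.54-fold higher there, at a log2 ratio of 1.35 (interval 1.15 to 1.54). Taf1d had 643 and 403 counts (0.54, interval 0.35 to 0.72). Taf1c, by contrast, had 143 and 206 (-0.67, interval -0.98 to -0.35). Counts of Taf1a per count of Taf1c were 2.87 and 0.369.

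Ubtf and Rrn3, the factors that act on the promoter and on the enzyme, showed little difference. Ubtf, which coats active rRNA genes, had 1499 and 1338 counts (log2 ratio 0.03, interval -0.08 to 0.13). Rrn3, with the E-boxes shown above, had 1307 and 1045 (0.18, interval 0.07 to 0.30), at 29.1 and 25.6 CPM per kb. The sum over the 11 genes was 1029 and 834 CPM.

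**Figure D3:**
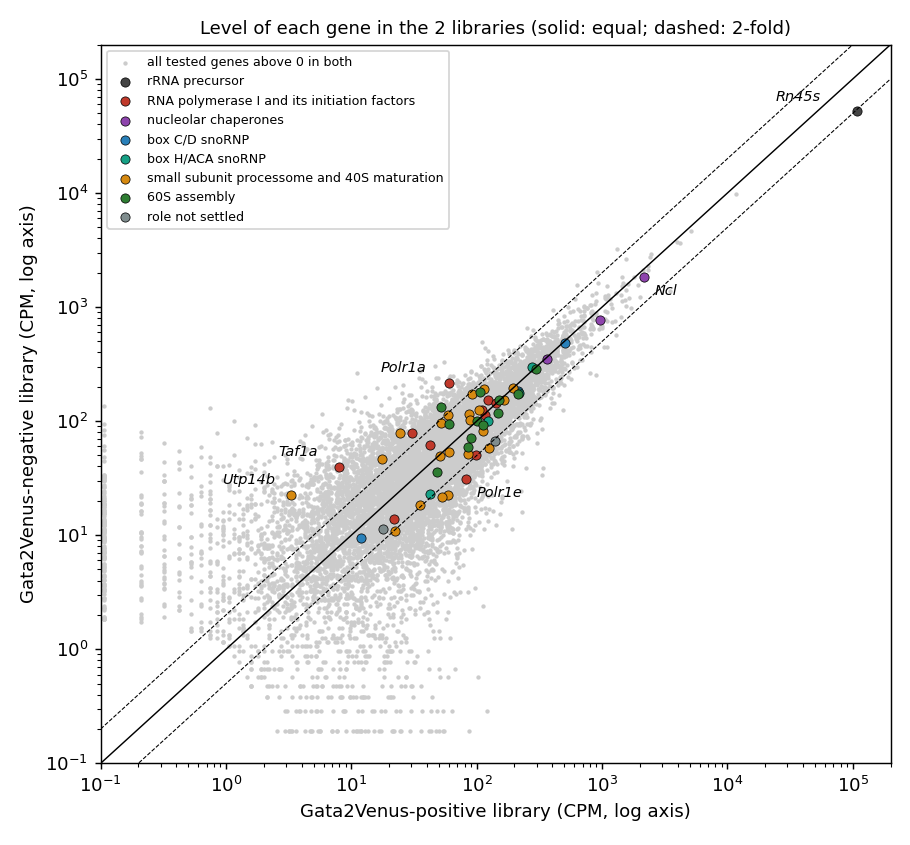
Level of each gene in the Gata2Venus-positive (x axis) and Gata2Venus-negative library (y axis), both in CPM on log axes, with members coloured by role and all other tested genes above 0 in both libraries in grey. The solid line marks equal levels and the dashed lines 2-fold. Rn45s lies alone at the upper right, and Utp14b, Taf1a and Polr1a lie farthest above the line.

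The nucleolar chaperones were abundant and differed little. Ncl (nucleolin), which binds the nascent precursor, had 18952 and 20459 counts, or 1820 and 2163 CPM (log2 ratio -0.25, interval -0.28 to -0.22). Npm1 (nucleophosmin), a histone chaperone and nucleolar scaffold, had 8008 and 9161 counts (-0.33, interval -0.38 to -0.29). Per exon length Npm1 was the most abundant member of all the protein-coding genes described here, at 289 and 363 CPM per kb. Similar sequence elsewhere covered 53.8% of its longest transcript, so its counts are uncertain. Nolc1, a snoRNP chaperone, had 3664 and 3457 counts (-0.05, interval -0.12 to 0.01). Of these 3 genes 0 were past the rule, where 2.74% and 2.63% of all genes above 200 CPM passed.

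Of the snoRNP genes 0 of 7 were past the rule. Most of the 7 had means above 50 CPM, where the background was 9.18% and 7.35% up to 200 CPM and 2.74% and 2.63% above it. Among the box C/D proteins, which guide methylation, Nop58 had 5071 and 4768 counts (log2 ratio -0.05, interval -0.11 to 0.01) and Nop56 had 1925 and 2032 (-0.22, interval -0.31 to -0.13). At 45.3 and 46.9 CPM per kb for Nop58 and 45.1 and 52.4 for Nop56, these partners were also alike in level. Fbl (fibrillarin), the methyltransferase of the same particle, had only 99 and 113 counts, at 2.26 and 2.84 CPM per kb (log2 ratio -0.33, interval -0.73 to 0.07).

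Among the box H/ACA proteins, which guide pseudouridylation and also belong to telomerase, Dkc1 (dyskerin, the pseudouridine synthase) had 3100 and 2588 counts (log2 ratio 0.12, interval 0.05 to 0.20). Nhp2 had 1822 and 2060 (-0.32) and Nop10 had 1034 and 1162 (-0.31), and these were the most abundant per exon length, at 153 and 190 CPM per kb for Nhp2 and 89.6 and 111 for Nop10. Gar1 stood apart from its partners in size, with 241 and 400 counts (-0.87, interval -1.11 to -0.64). Its counts per count of Dkc1 were 0.0777 and 0.155.

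Genes of the small subunit processome and of 40S maturation spread the most widely of the roles. The quartiles of their log2 ratios were -0.71 and 0.89, beside -0.84 and 0.81 over all tested genes. Of 21 genes 3 passed with the negative library higher (Utp14b, Utp20 and Rrp12), 2 were higher in the positive library (Nol10 and Utp14a) and 16 were not past the rule. Of all tested genes 12.6% and 12.3% passed. The median log2 ratio of the 21 genes was 0.00. Utp14b (chromosome 1, 78658038 to 78671512) had 236 and 31 counts, or 22.7 CPM (interval 19.9 to 25.8) against 3.28 CPM (2.23 to 4.65). It was 6.92-fold higher in the negative library. Its log2 ratio was 2.79, with an interval of 2.25 to 3.38. Utp14b is a retrogene copy of Utp14a known for its role in male germ cells, and it lies within Acsl3 on the same strand, with overlapping exons. Acsl3, a fatty acid activating enzyme, had 914 and 755 counts (log2 ratio 0.14). Whether reads of one were counted for the other was not tested.

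Utp14a (chromosome X, 48256862 to 48282453), the parental gene, stood on the opposite side. It had 226 and 503 counts, or 21.7 and 53.2 CPM, and was 2.45-fold higher in the positive library, at a log2 ratio of -1.29 (interval -1.53 to -1.06). The libraries thus held 1.04 and 0.0616 counts of Utp14b per count of Utp14a, a 16.9-fold difference.

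Utp20 (chromosome 10, 88746607 to 88826804), a very large scaffold protein of the processome, had 817 and 231 counts, or 78.5 and 24.4 CPM, and was 3.21-fold higher in the negative library. Its log2 ratio was 1.68, with an interval of 1.47 to 1.90. Rrp12 (chromosome 19, 41862851 to 41896173), a nuclear export factor of pre-ribosomes, had 487 and 167 counts and was 2.65-fold higher there (1.41, interval 1.15 to 1.67). Nol10 (chromosome 12, 17348458 to 17430095), a WD-repeat protein of the early processome, had 235 and 556 counts and was 2.60-fold higher in the positive library (-1.38, interval -1.61 to -1.16).

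Several others came near the bound without passing it. On the negative side the processome subunits Utp6 (1178 and 558 counts, log2 ratio 0.94), Utp18 (1785 and 863, 0.91), Nol6 (1007 and 493, 0.89) and Utp15 (2010 and 1074, 0.77) lay together. On the positive side Nop14 (601 and 1192 counts, -1.13), Utp23 (114 and 211, -1.03), and Rrp36 (190 and 331, -0.94) did so. Rrp9 (536 and 799 counts, -0.71) and Nol11 (846 and 1054, -0.46) lay farther inside it. Nop14 and Utp23 had point ratios beyond 2-fold whose intervals reached inside it. Rrp9 is a protein of the U3 snoRNP, the guide particle around which the processome forms.

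The remaining genes of the group differed less. Utp3, the most abundant per exon length at 119 CPM per kb in each library, had 2021 and 1834 counts (log2 ratio 0.00, interval -0.09 to 0.09). Imp3 and Imp4, which join the U3 RNA to the precursor, had 519 and 486 counts (-0.04) and 1580 and 1569 counts (-0.13). Rrp7a had 563 and 564 (-0.14). The late 40S factors Nob1, the nuclease that makes the mature end of 18S rRNA, and Bysl had 1069 and 837 counts (0.21) and 1208 and 815 counts (0.43), and Nop9 had 1306 and 994 (0.26).

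In 60S assembly 1 of 12 genes was past the rule. Rrp8 (chromosome 7, 105731730 to 105737385), a methyltransferase of 28S rRNA, had 1394 and 495 counts, or 134 and 52.3 CPM, and was 2.56-fold higher in the negative library. Its log2 ratio was 1.36, with an interval of 1.21 to 1.51. Its exons overlap those of Ilk on the opposite strand, which had 2066 and 2082 counts (log2 ratio -0.15), and the use of strand in counting is not given in the sources used here. Nol9, the kinase that acts on the cut spacer ahead of 28S rRNA (1864 and 998 counts, 0.76), and Rrp1b (976 and 570, 0.64) also lay to the negative side. Rrp1, the paralogue of Rrp1b and the most abundant per exon length of these 12 genes (85.5 and 89.8 CPM per kb), had 2969 and 2834 counts (-0.07).

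The Pes1, Bop1 and Wdr12 genes, whose products form a single complex, were all within 2-fold. Pes1 had 1046 and 949 counts, at 100 CPM in each library (log2 ratio 0.00, interval -0.13 to 0.13). Bop1 had 1582 and 1430 (0.01, interval -0.10 to 0.11), which is 1.51 counts per count of Pes1 in each library. Wdr12 had 733 and 854 (-0.36, interval -0.50 to -0.21), which is 0.701 and 0.900 counts per count of Pes1, a log2 difference of -0.36 with an interval of -0.55 to -0.17. Similar sequence elsewhere covered 60.5% of the longest Pes1 transcript. It also covered 61.2% of Imp3, 29.3% of Taf1d, 28.4% of Polr1d and 25.2% of Nop56, whose counts are likewise uncertain. The other log2 ratios ranged from -0.51 for Rrs1, which helps load the 5S particle, to -0.29 for Rrp15. Between them lay Nol12, Nop16 (1229 and 1391 counts, 64.0 and 79.7 CPM per kb) and Nop2, an rRNA methyltransferase (1799 and 2019 counts).

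**Figure D4:**
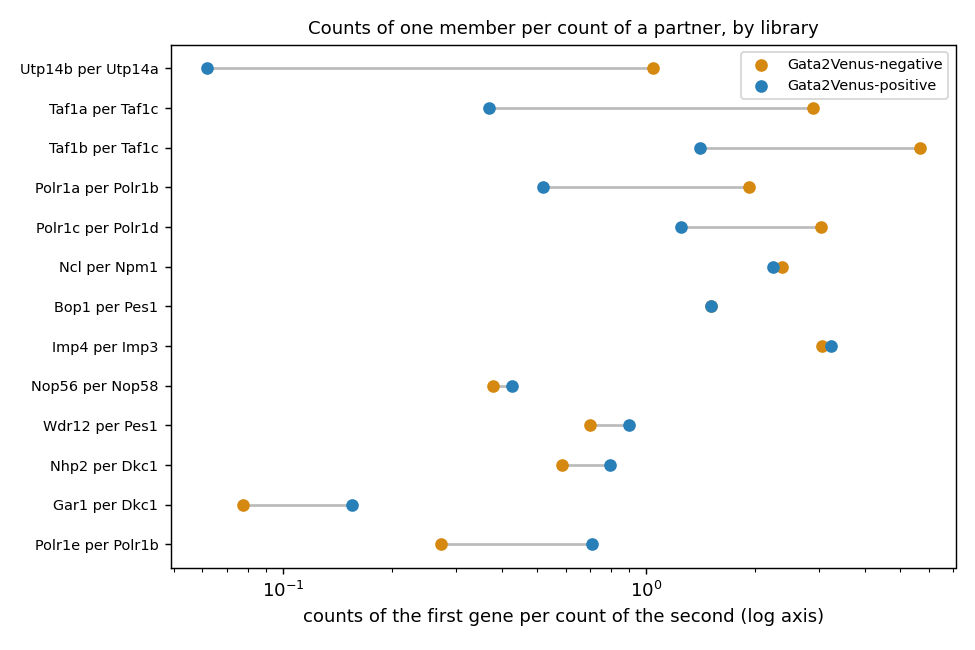
Counts of one member per count of a partner (x axis, log scale) in the Gata2Venus-negative and Gata2Venus-positive libraries, for 13 pairs chosen after their values were seen. Each line joins the libraries' values for 1 pair. The longest line is that of Utp14b per Utp14a, with 1.04 for the negative and 0.0616 for the positive library, and Bop1 per Pes1 is at 1.51 in each.

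Nol7 and Nol8, matched by name and with roles that are less settled, both had ratios below 0 and did not pass. Nol7 had 699 and 1322 counts (log2 ratio -1.06, interval -1.19 to -0.92) and Nol8 had 117 and 169 (-0.67, interval -1.02 to -0.32).

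Other genes of ribosome assembly, from lists that the symbol pattern does not reach, were counted by the same rule. Of 114 such genes, all tested, 8 passed as higher in the negative library, 7 passed the other way and 99 did not pass. The background over all tested genes was 12.6% and 12.3%, above these shares in both directions. The share falls with level, and the median of these genes was 82.4 and 88.1 CPM. Among all genes of 50 to 200 CPM the background was lower, at 9.18% and 7.35%. Their median log2 ratio was -0.04. Scaling by total counts gave 9 and 4. Among further RNA polymerase I factors 2 of 12 passed as higher in the negative library and 1 the other way. For small subunit factors it was 3 and 2 of 34, for large subunit factors 2 and 2 of 43, for snoRNP assembly factors 0 and 0 of 10, and for the RNA exosome and its partners 1 and 2 of 15. On the negative side stood the helicase gene Ddx10 (1831 and 437 counts, 3.81-fold), Polr2h, a subunit common to the nuclear RNA polymerases (565 and 162, 3.17-fold), Rbm34 (2.61-fold), Dhx37 (2.54-fold), Tcof1, the Treacher Collins factor that works with polymerase I (2188 and 817, 2.43-fold), and Gnl2 (2.37-fold). On the positive side the helicase gene Dhx33 had 1 and 846 counts (log2 ratio -9.86, interval -15.17 to -7.38). Ptrf, a caveola protein first described as a polymerase I release factor, had 6 and 962 (-7.46, interval -8.91 to -6.34). Wdr75 (747 and 2406, 3.55-fold), the exosome gene Exosc6 (3.06-fold), Nom1 (2.37-fold) and Nle1 (2.36-fold) followed. Utp15 and Nol11 belong with Wdr75 and Heatr1 to the subcomplex that links the processome to rRNA transcription. Heatr1, named after its values were seen, was 2.28-fold higher in the negative library (1393 and 556 counts). Of other genes of this subcomplex, Utp15 (0.77), Nol11 (-0.46), Cirh1a (0.40) and Wdr43 (-0.13), given as log2 ratios, did not pass.

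Genes for the cytosolic ribosomal proteins mostly had ratios below 0. Of 81 tested symbols 68 had a ratio below 0, as had 6326 of all 12544 tested genes. By the rule 0 were higher in the negative library and 4 were higher in the positive library. The background was 12.6% and 12.3% of all tested genes. The median log2 ratio was -0.52 (interval over genes -0.58 to -0.38). These genes have many near-identical copies, so their counts are uncertain.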

How the data were processed

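Per the submitters' processing notes, TopHat, Cufflinks and HTSeq were used with genome build mm10. Tool versions, annotation and strand use were not given in the sources used here. Per the labels, RNA was prepared with the mirVana kit and SMARTER. The authors deposited raw counts for each gene symbol. The 5 rows that name no gene were left out; of all counts, unassigned alignments that were not unique made up 45.5% and 48.2%, no-feature reads 5.93% and 8.00%, and ambiguous reads 0.474% and 0.412%.

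Counts were scaled with edgeR 4.0.16 TMM factors (1.03 and 0.974). Genes with at least 20 counts over both libraries were tested by the rule of size, with exact Clopper-Pearson intervals of the ratio given a gene's total. Intervals of levels are exact Poisson. Members and lists were chosen with earlier results of these data known. All members were named or counted by role, with counts for those past the rule and for the 2 most abundant per exon length in each role. Other assembly genes were named when past the rule, up to 6 a direction. Exon lengths came from GENCODE vM21, in which 58 members were found. Similar sequence was searched with blastn 2.17.0 (95% identity, 100 bases). The steps were tested on simulated counts with planted differences and counting error alone. Such counts cannot test the effect of spread between libraries.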

Additional observations from a re-analysis of the deposited data

How the results depend on the processing

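Of the 11 members past the rule, all 11 passed with DESeq2 1.42.0 size factors, with totals without the 100 most abundant genes or without ribosomal, mitochondrial, predicted and small RNA genes, with looser count filters and after thinning the deeper library. Scaling by total counts left 2 members and 4 other assembly genes higher in the positive library. At 50 CPM, 4 members were higher in the negative library, the share of all genes there being 5.01%. With intervals beyond 4-fold, and likewise with a coefficient of variation of 0.4 added to the counting error, 1 member (Utp14b) passed with the negative library higher and 0 the other way, against 0 and 2 of the other assembly genes. The shares of all genes were then 5.93% and 5.99% for the intervals, and 5.29% and 5.53% with the added variation. Ratios beyond 2-fold without the interval gave 7 members on the positive side and 13 other assembly genes on the negative side, where all genes stood at 15.4% and 15.8%. Without members whose exons overlap another gene, an alternative chosen after seeing the data, 4 members were higher in the negative library, fewer members being tested. The members' median stayed between -0.08 and 0.01 in every alternative, and no member past the rule changed sign. With 1 library a group, spread between replicates is unknown. No paired analysis was possible because each group has 1 library.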

Other observations

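Fbl was low for its family. Its 2.26 and 2.84 CPM per kb compare with 45.1 and 52.4 for Nop56, its partner in the box C/D particle. For the longest Fbl transcript 0 other genes with similar sequence were found. Similar sequence elsewhere covered 25.2% of the longest Nop56 transcript, so the Nop56 counts are uncertain. Annotated exons of Fbl total 4209 bases and its longest transcript has 2411, so its value per kb depends on the length used. The cause of the low Fbl level was not tested.

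Among 56 members with an annotated exon length, the log2 ratio correlated weakly with that length (Spearman's rho 0.32 across genes, which share the same libraries and are not replicates). Over 10123 tested genes the value was 0.06. For the GC content of the longest transcript and for mean CPM, rho among the members was -0.03 and 0.17. These comparisons were added after seeing the data. The part of transcript length in the members' differences was not tested.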
